A study of Mus musculus with 12 samples.

Results

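The programmed death 1 receptor (PD-1, encoded by Pdcd1) is an inhibitory receptor that T cells put on their surface after antigen recognition. When it binds its ligands PD-L1 or PD-L2 on tissue cells, its cytoplasmic tail recruits phosphatases that dampen signaling from the T cell receptor (TCR) and CD28. STAT3 is a transcription factor activated downstream of IL-6, IL-10, IL-21 and related cytokines. In graft-versus-host disease (GVHD), donor T cells infiltrate and attack tissues of the recipient, and the liver is one of the tissues they enter.

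Here, 4 of the 12 liver libraries of the series were compared: 2 libraries of STAT3-/-PD-1-/- CD8+ T cells against 2 libraries of STAT3-/- CD8+ T cells, chosen by genotype and subset in the labels (STAT3ko PD-1ko and STAT3ko). The question was how transcripts of STAT3-deficient CD8+ T cells in the liver differ once PD-1 is also lost. Donors were C57BL/6 mice, and recipients were lethally irradiated WT BALB/c mice given donor T cells with WT bone marrow. Donor CD8+ T cells were sorted from liver on day 6 after hematopoietic cell transplantation (HCT). STAT3-/- donors carried floxed Stat3 and CD4-Cre, which deletes in T cells of both the CD4+ and the CD8+ lineage. STAT3-/-PD-1-/- donors carried floxed Stat3 and CD4-Cre as well as the PD-1-/- knockout, so that the STAT3 deletion was shared by both sides of the comparison. The 2 libraries of WT CD8+ T cells served as a reference for levels, and the 4 CD4+ libraries of the same genotypes served for a comparison between subsets. Each library was made from lymphocytes combined from several recipients, and a replicate thus stands for pooled mice. Adjusted p-values measure the spread between these libraries only, which may in part be technical. The labels do not say that PD-1-/- and STAT3-/- donors were littermates.

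The STAT3-/- libraries held 24150842 and 24433942 counts on genes, the STAT3-/-PD-1-/- libraries 21676125 and 23391413, and the WT libraries 23493547 and 24551477. Levels are given as CPM, counts on a gene relative to the size of its library scaled by edgeR's TMM factors, in the order replicate 1 and replicate 2. Fold changes are STAT3-/-PD-1-/- over STAT3-/- on the log2 scale, with the SE from edgeR's quasi-likelihood fit of the 6 CD8+ libraries. Genes were called where p, adjusted by Benjamini-Hochberg over all genes tested, was under 0.05.

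Transcripts of the targeted genes followed the labels. Pdcd1 fell from 422 and 458 to 93.95 and 66.5 CPM (log2 fold change -2.45, SE 0.19, adjusted p = 0.0021), and WT libraries held 375 and 309.7 CPM. Pdcd1 lies on chromosome 1 of mm10 (chr1:94038305-94052553, minus strand), and reads on it remained in both knockout libraries. Stat3, of which the floxed exons alone are deleted, held 396 and 387 CPM in WT, 148 and 136 CPM in STAT3-/-, and 154 and 238 CPM in STAT3-/-PD-1-/- libraries. The last group was not past the threshold against STAT3-/- (log2 fold change 0.47, SE 0.19, adjusted p = 0.141), with replicate 2 the highest of the 4. It passed in 1 of 17 alternatives, without STAT3-/-PD-1-/- replicate 1 (log2 fold change 0.72, edgeR adjusted p = 0.038).

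The sorted cells carried the markers of CD8+ T cells. Cd8a and Cd8b1, which encode the 2 chains of the coreceptor, were abundant in all 6 libraries but lower in STAT3-/-PD-1-/- cells. Cd8a fell from 1018 and 1192 to 597 and 598 CPM (log2 fold change -0.89, SE 0.12, adjusted p = 0.007), and Cd8b1 fell from 1032 and 1192 to 556 and 593 CPM (log2 fold change -0.95, SE 0.11, adjusted p = 0.0045). The 3 listed CD8+ T cell markers summed to 2323 and 2643 CPM in STAT3-/- and 1409 and 1458 CPM in STAT3-/-PD-1-/- libraries, with 2 of 3 called lower. Of the 8 alpha-beta T cell markers, 3 were called lower, and their sum was 5573 and 5973 against 4587 and 4726 CPM. In sorted bulk libraries, fewer cells of a type and less RNA per cell cannot be told apart.

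RNA of hepatocytes, neutrophils and erythroid cells was scarce. The 15 hepatocyte markers summed to 1.55 and 2.80 CPM in STAT3-/- and 3.68 and 5.92 CPM in STAT3-/-PD-1-/- libraries, with Trf the most abundant. Among them Apoc3 was at 0 in all 6 libraries, and Trf alone was called higher. The 10 neutrophil markers summed to at most 1.13 CPM, the 10 erythroid markers to at most 0.355 CPM and the 7 stellate cell and fibroblast markers to at most 0.621 CPM in each of the 6 libraries. The 12 macrophage markers summed to 27.8 and 36.4 against 18.2 and 20.1 CPM. Cd68 was the most abundant of them, with 27.1 and 28.01 against 17.0 and 18.6 CPM, and was called lower. Genes of Kupffer cells, the macrophages of the liver, were higher in replicate 2 of the STAT3-/- and WT groups. Clec4f held 0.0429 and 1.03 CPM in STAT3-/-, 0.222 and 1.49 CPM in WT and 0.222 and 0.0828 CPM in STAT3-/-PD-1-/- libraries, and C1qc held 0 and 1.11, 0.0888 and 1.41, and 0.0444 and 0.0414 CPM. The 8 NK cell markers summed to 74.0 and 96.0 against 66.7 and 49.95 CPM. Klrb1c (28.9 and 52.7 against 22.99 and 11.4 CPM) and Eomes (32.5 and 29.7 against 23.7 and 19.01 CPM), which CD8+ T cells also express, made up most of it, Fcer1g was called higher, and the receptors Klra8 and Klra4 were at 0 in all 6. The 10 dendritic cell markers summed to 224 and 253 against 36.2 and 31.4 CPM, and Itgax, an integrin that activated T cells also carry, made up most of that sum, while Siglech and Clec9a were at 0 in all 6. The 9 B cell and plasma cell markers summed to 13.3 and 14.2 against 8.48 and 8.66 CPM (Cd79b lower and Sdc1 higher), the 6 gamma-delta T cell markers to 3.14 and 3.91 against 2.75 and 2.65 CPM, and the 5 CD4+ T cell markers to 285 and 287 against 223 and 195 CPM. Of the last sum most was Cd5 and Zbtb7b, while Cd4 itself held 0.644 and 0.783 against 0.533 and 2.78 CPM, and Foxp3 was called lower. The 8 endothelial markers, nearly all Pecam1, summed to 117 and 124 against 116 and 129.6 CPM, and the 5 cholangiocyte markers, nearly all Epcam, to 13.3 and 10.7 against 10.3 and 10.4 CPM. Of the endothelial markers Egfl7 was called higher, with 1.72 and 1.24 against 4.97 and 5.59 CPM. The study sorted H-2Kb+TCRβ+CD8+ cells, a gate meant to leave out cells without the TCR beta chain or CD8. The part of other cells in the results below was not tested.

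Replicate 1 of the STAT3-/- and WT groups stood apart in genes that T cells induce within minutes to hours of stimulation. Junb, an AP-1 subunit, held 651 and 142 CPM in the STAT3-/- and 795 and 170.1 CPM in the WT libraries. Nfkbia, the inhibitor of NF-kB, held 772 and 195 CPM and 797 and 215 CPM. Bhlhe40, a transcription factor of activated T cells, held 2042 and 444 CPM and 2263 and 516 CPM. The STAT3-/-PD-1-/- libraries did not split that widely, with 224 and 133 CPM for Junb and 919 and 702 CPM for Bhlhe40. What sets replicate 1 apart was not tested, so no direction is read below from the early genes as a group.

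Loss of PD-1 on top of the STAT3 deletion was accompanied by a broad change of the transcriptome. Of 25078 genes in the file, 12002 were tested and 2017 were called changed (16.8%), 1051 higher (8.76%) and 966 lower (8.05%) in STAT3-/-PD-1-/- cells. At least a 2-fold change was seen in 440 of the higher and 355 of the lower genes, and the median absolute log2 fold change of called genes was 0.84. In each called gene the libraries of both genotypes did not overlap, which was also so for 63% of all genes tested. The first principal component held 54.6% of the variance and separated the STAT3-/-PD-1-/- libraries (40.3 and 54.2) from the 4 STAT3-/- and WT libraries (-29.4 to -19.004).

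The number of calls rested on few libraries. Without replicate 2 of the STAT3-/-PD-1-/- group, where the lone library was assumed to vary like the others, 2 genes remained called, Ctse (4.22) and Itgax (-3.06), while 2846 genes had an unadjusted p under 0.05 and the median absolute log2 fold change of the 2017 genes was 0.78. Leaving out 1 of the other 3 libraries compared left 1034 (STAT3-/-PD-1-/- replicate 1), 1194 (STAT3-/- replicate 1) and 461 (STAT3-/- replicate 2) calls. Scaling by library totals alone gave 1456 higher and 718 lower genes in place of 1051 and 966.

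**Figure D1:**
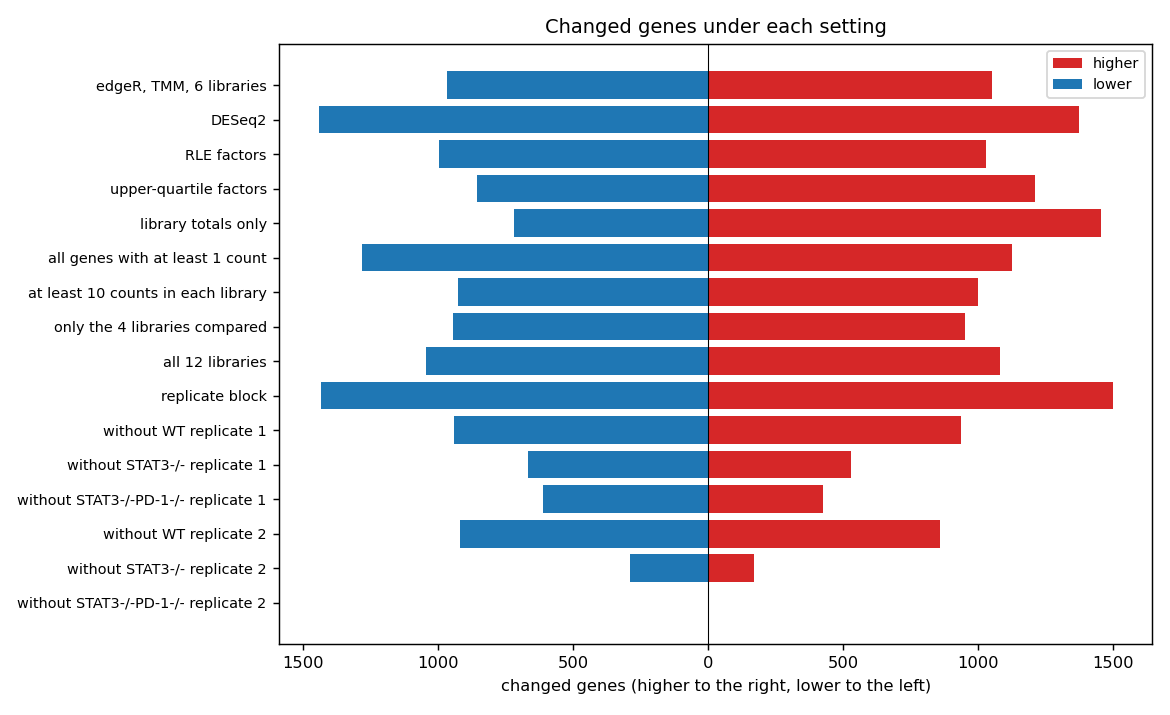
Number of genes called higher (right, red) and lower (left, blue) in STAT3-/-PD-1-/- against STAT3-/- liver CD8+ T cells under each setting, with the reported fit on top. Leaving out replicate 2 of the STAT3-/-PD-1-/- group left 2 calls, and the other settings left between 461 and 2932.

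The 12 largest rises by the rule for named genes held granzymes, an aspartic protease and genes of endosomes and the cytoskeleton. Ctse, which encodes the endosomal aspartic protease cathepsin E, rose from 19.8 and 22.1 to 392 and 418 CPM (log2 fold change 4.27, SE 0.19, adjusted p = 0.00058). Gzmf rose from 3.69 and 1.36 to 49.04 and 57.8 CPM (log2 fold change 4.40, SE 0.47, adjusted p = 0.0039), and Gzmc rose from 10.1 and 5.44 to 54.9 and 62.6 CPM (log2 fold change 2.92, SE 0.28, adjusted p = 0.003). Both are granzymes, the serine proteases of cytotoxic granules. Il1r2, which encodes the decoy receptor for IL-1, rose from 3.52 and 3.42 to 25.3 and 29.5 CPM (log2 fold change 2.98, SE 0.28, adjusted p = 0.0029). Gldc, the glycine decarboxylase of the mitochondrial glycine cleavage system, rose from 40.7 and 29.5 to 197 and 219 CPM (log2 fold change 2.57, SE 0.18, adjusted p = 0.0014). In these 5 genes the STAT3-/-PD-1-/- libraries also lay above both WT libraries, which held 28.3 and 38.7 CPM of Ctse and 40.9 and 44.5 CPM of Gldc.

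The other 7 of these rises were Mamdc2 (4.11 ± 0.23, log2 fold change ± SE), Rab4a (3.18 ± 0.37), Dclk1 (2.69 ± 0.23), Npnt (2.45 ± 0.23), Lad1 (2.40 ± 0.29), Tubb6 (2.39 ± 0.15) and Sv2c (2.33 ± 0.19). Rab4a encodes a small GTPase of endosomal recycling, Npnt an extracellular matrix protein, and Tubb6 a beta-tubulin. Their adjusted p ranged from 0.00097 to 0.0051. All of them were low in STAT3-/- cells, at 1.24 to 21.4 CPM, and reached 18.7 to 96.9 CPM without PD-1.

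The 12 largest falls held integrins, a chemokine receptor and the interferon-inducible PYHIN family. Itgax fell from 219 and 245 to 27.9 and 20.5 CPM (log2 fold change -3.26, SE 0.17, adjusted p = 0.00083), and Itgam fell from 53.9 and 70.4 to 8.08 and 6.59 CPM (log2 fold change -3.08, SE 0.18, adjusted p = 0.0012). They encode CD11c and CD11b, alpha chains that pair with the beta2 integrin. Ccr2, the receptor for CCL2, fell from 174 and 228 to 42.4 and 15.9 CPM (log2 fold change -2.79, SE 0.42, adjusted p = 0.0096). The 4 libraries thus fell into separate ranges by genotype for each of these genes, and WT cells held 391 and 366 CPM of Itgax and 360.3 and 449.6 CPM of Ccr2.

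Of the PYHIN genes, which lie next to each other on chromosome 1 and encode sensors of nucleic acids, Ifi213 (-3.30 ± 0.33), Ifi214 (-3.24 ± 0.26), Ifi208 (-2.48 ± 0.26) and Ifi209 (-2.48 ± 0.21) were among the 12. They are close copies of each other, so the share of reads that belongs to each is uncertain. The others were Art2b (-2.85 ± 0.39), which encodes a surface ADP-ribosyltransferase, Pou6f1 (-2.75 ± 0.26), Rtn4rl1 (-2.74 ± 0.38), Zfp831 (-2.58 ± 0.33) and Pde2a (-2.55 ± 0.18), a phosphodiesterase of cyclic nucleotides. The adjusted p of the 12 ranged from 0.00083 to 0.0096.

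**Figure D2:**
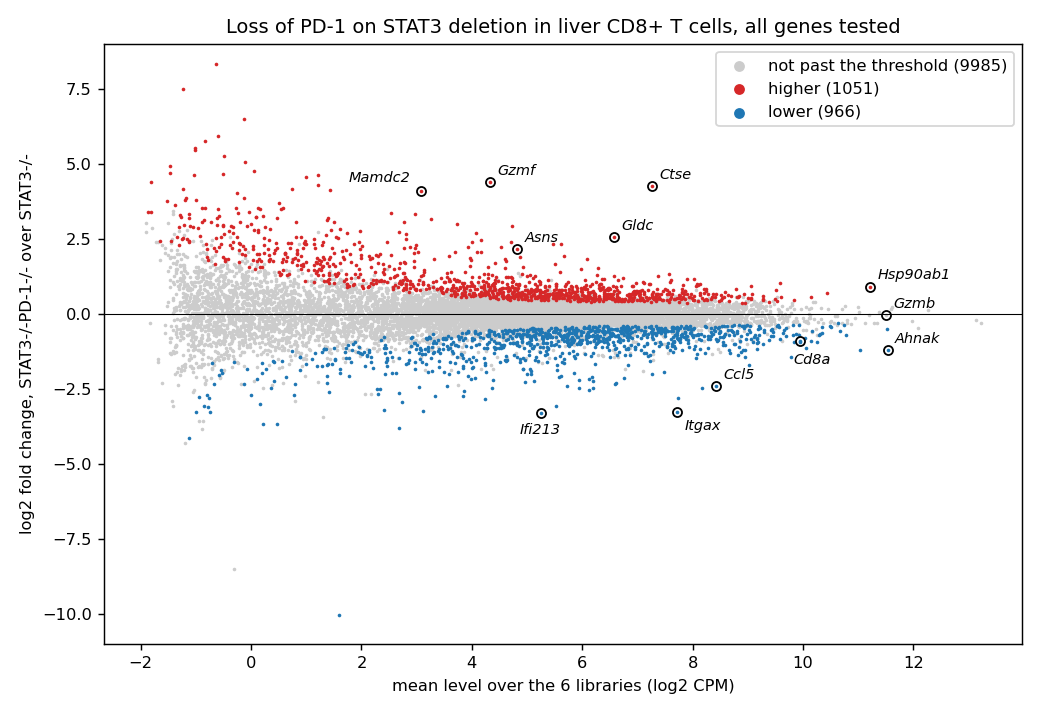
Each point is 1 of the 12002 genes tested, with its mean level over the 6 CD8+ libraries (log2 CPM) on the horizontal axis and the log2 fold change of STAT3-/-PD-1-/- over STAT3-/- on the vertical axis. Red points were called higher (1051) and blue points lower (966), and Ctse and Itgax stand out among the abundant genes.

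The percent of a gene list's tested members that were called is given in parentheses, against 16.8% of all genes tested. Part of the genes of the TCR and its first signaling steps was lower without PD-1. All 24 tested members of the list for the TCR complex and proximal signaling had a negative log2 fold change, 12 were called lower and 0 higher (50%), and the median was -0.43 against -0.0028 over all genes tested. Sla2, an adaptor that dampens TCR signaling, fell from 68.1 and 77.02 to 46.9 and 33.9 CPM (log2 fold change -0.84, SE 0.17, adjusted p = 0.021). Cd8a and Cd8b1, given above, were also among the 12. The kinases Lck and Fyn and the phosphatase Ptprc were called lower as well.

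Of the 6 tested members of the PD-1 axis list, Pdcd1 alone was called, a share of 16.7% against 16.8% of all genes tested. Ptpn11 measured 458 and 466 CPM in the STAT3-/- and 483 and 524 CPM in the STAT3-/-PD-1-/- libraries (log2 fold change 0.12, SE 0.10, adjusted p = 0.425), and Ptpn6 measured 388 and 401 CPM in the STAT3-/- and 353 and 288 CPM in the STAT3-/-PD-1-/- libraries (log2 fold change -0.30, SE 0.12, adjusted p = 0.132). These genes encode SHP-2 and SHP-1, phosphatases that bind inhibitory receptors.

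Of the other inhibitory receptors, 7 of 18 were called lower and 0 higher (38.9%, median -0.56). Over the settings this median ranged from -0.76 to -0.30. Lilrb4a fell from 63.2 and 58.2 to 36.3 and 24.02 CPM (log2 fold change -1.01, SE 0.23, adjusted p = 0.027), and Klrc1, which encodes NKG2A, fell from 142 and 150.1 to 89.9 and 55.7 CPM (log2 fold change -1.003, SE 0.21, adjusted p = 0.023). Lair1, a receptor for collagens, fell from 31.3 and 31.5 to 17.7 and 15.7 CPM (log2 fold change -0.91, SE 0.13, adjusted p = 0.0089). Nt5e, the ectoenzyme CD73 that makes adenosine, fell from 28.6 and 44.9 to 14.2 and 20.9 CPM (log2 fold change -1.07, SE 0.26, adjusted p = 0.034). The receptors best known from exhausted T cells were not past the threshold, with log2 fold changes of -0.17 ± 0.10 for Lag3, 0.19 ± 0.14 for Havcr2, -0.12 ± 0.17 for Tigit and -0.27 ± 0.65 for Ctla4.

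Costimulatory receptors changed in both directions, with 8 of 18 lower and 2 higher (55.6%). Tnfrsf4, which encodes OX40, rose from 26.8 and 18.8 to 55.3 and 50.4 CPM (log2 fold change 1.21, SE 0.22, adjusted p = 0.015), and Tnfrsf8, which encodes CD30, rose from 8.98 and 7.95 to 16.02 and 19.6 CPM (log2 fold change 1.07, SE 0.19, adjusted p = 0.014). Cd7 fell from 47.8 and 67.1 to 16.9 and 14.8 CPM (log2 fold change -1.86, SE 0.19, adjusted p = 0.0036), and Slamf7 fell from 169.9 and 218 to 109 and 57.3 CPM (log2 fold change -1.23, SE 0.29, adjusted p = 0.033).

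Of 13 exhaustion regulators, 4 were called lower and 0 higher (30.8%). Maf, a factor of IL-10 and IL-21 producing T cells, fell from 35.9 and 33.3 to 10.9 and 8.28 CPM (log2 fold change -1.85, SE 0.19, adjusted p = 0.0038). The calcium-dependent factors Nfatc1 (-0.65 ± 0.13), Nfatc2 (-0.65 ± 0.12) and Nfatc3 (-0.40 ± 0.11) were the others. Nfatc3 lost its call in 9 of 17 alternatives. Tox measured 294 and 237 against 230.2 and 232 CPM (log2 fold change -0.20, SE 0.17, adjusted p = 0.434). Of 15 effector transcription factors 1 was called (6.67%), Ikzf3, which fell from 729 and 772 to 448 and 338 CPM (log2 fold change -0.93, SE 0.14, adjusted p = 0.0099). Of 22 AP-1 and early genes 1 was called (4.55%), Batf3, with 0 and 3 counts in the STAT3-/- and 17 and 27 counts in the STAT3-/-PD-1-/- libraries. With the replicate block, 8 AP-1 and early genes and 4 effector transcription factors were called. The median of the early genes was -0.67 with all libraries and 0.06 without STAT3-/- replicate 1, the library that stood apart, and that of the effector factors moved from -0.54 to 0.06.

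Some genes of memory and resting T cells were lower without PD-1, and others did not pass the test. Of 31 tested members 11 were called lower and 0 higher (35.5%), and the median log2 fold change was -1.07. Over the settings this median ranged from -1.09 to -0.455. Klf3, a repressor of the Krüppel-like family, fell from 89.5 and 98.6 to 23.6 and 12.3 CPM (log2 fold change -2.39, SE 0.28, adjusted p = 0.005). Bcl2, which protects lymphocytes from apoptosis, fell from 237 and 247 to 107 and 94.4 CPM (log2 fold change -1.26, SE 0.13, adjusted p = 0.0036). Slfn2, a factor of T cell quiescence, fell from 353 and 397 to 190.3 and 113 CPM (log2 fold change -1.30, SE 0.23, adjusted p = 0.014). Btg1, an antiproliferative gene, fell from 607 and 321 to 193 and 168 CPM (log2 fold change -1.36, SE 0.36, adjusted p = 0.043), although its STAT3-/- replicates differed widely from each other. The homing receptors S1pr1 and Ccr9 and the transcription factors Bach2 and Ets1 were also among the 11.

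Cytotoxic granule genes changed in both directions. Of 22 tested members, 4 were called higher and 6 lower (45.5%, median -0.14). The 4 that rose were Gzmc and Gzmf, given above, and Gzmd and Gzme, which had 0 and 1 counts each in the STAT3-/- libraries and 35 and 40 (Gzmd) and 54 and 56 (Gzme) counts in the STAT3-/-PD-1-/- libraries. These 4 granzymes are neighbours on chromosome 14 and close in sequence, so the share of each is uncertain. Gzma fell from 893 and 1112 to 596 and 462 CPM (log2 fold change -0.92, SE 0.16, adjusted p = 0.013), and Gzmk fell from 193 and 250.3 to 139 and 111 CPM (log2 fold change -0.83, SE 0.18, adjusted p = 0.025), which are granzymes of a different locus on chromosome 13.

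Granzyme B itself was not called. Gzmb measured 2206 and 1859 CPM in the STAT3-/- and 2198 and 1761 CPM in the STAT3-/-PD-1-/- libraries (log2 fold change -0.04, SE 0.15, adjusted p = 0.885), and WT libraries held 5202 and 4238 CPM. The sign of this difference turned to 0.05 with library totals alone. Per exon length, Gzmb stayed the most abundant of the granzymes named here, with RPKM values of 1500.1 and 1185 in STAT3-/-PD-1-/- libraries, against 698 and 533 for Gzma, 60.5 and 68.1 for Gzmc and 55.7 and 64.7 for Gzmf. Gzmc and Gzmf thus stayed far below Gzmb after their rise. Perforin (Prf1) had a log2 fold change of 0.19 ± 0.19 and was not past the threshold.

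**Figure D3:**
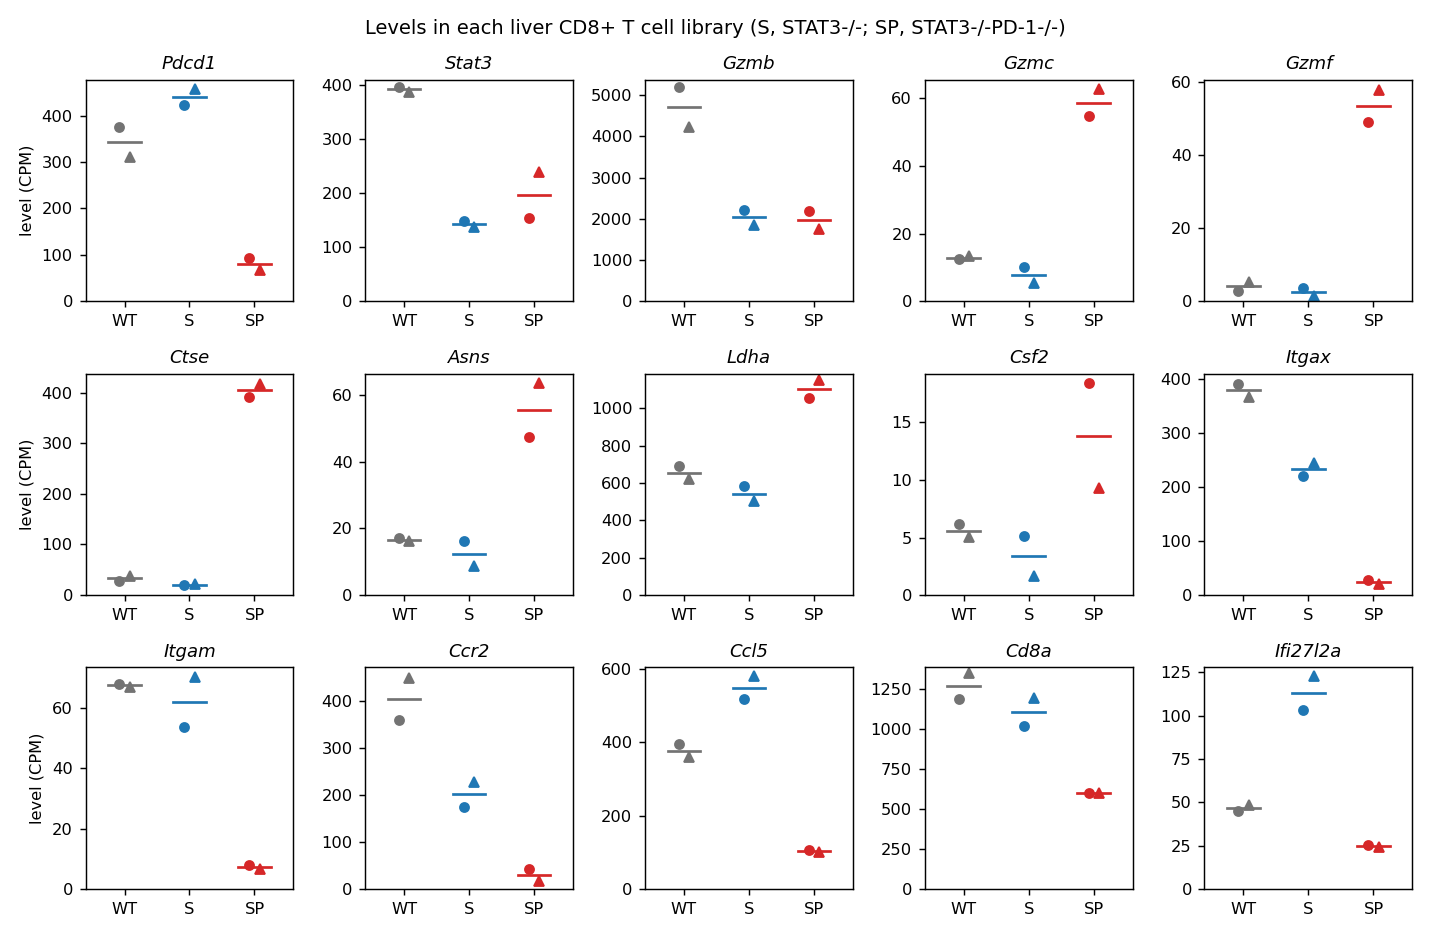
Level (CPM, from 0) of 15 genes in each of the 6 liver CD8+ T cell libraries, with circles for replicate 1, triangles for replicate 2 and a bar at the mean of the 2, for WT, STAT3-/- (S) and STAT3-/-PD-1-/- (SP) cells. Pdcd1, Itgax, Itgam, Ccr2, Ccl5, Cd8a and Ifi27l2a lay lower and Gzmc, Gzmf, Ctse, Asns, Ldha and Csf2 higher in SP than in S libraries, while Gzmb and Stat3 were not past the threshold.

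Of 28 tested cytokine and chemokine genes 4 were higher, Spp1, Ccl1, Csf2 and Il21, and 3 were lower, Ccl5, Flt3l and Il16, a share of 25% against 16.8% of all genes tested. Csf2, which encodes GM-CSF, rose from 5.15 and 1.69 to 18.4 and 9.32 CPM (log2 fold change 2.02, SE 0.53, adjusted p = 0.041). Ccl5, a chemokine of effector CD8+ T cells, fell from 518 and 580.1 to 105 and 99.9 CPM (log2 fold change -2.42, SE 0.12, adjusted p = 0.00069), and its 2 libraries of each genotype were close together. Flt3l, a growth factor of dendritic cells, fell from 60.99 and 72.7 to 34.6 and 31.6 CPM (log2 fold change -1.01, SE 0.14, adjusted p = 0.0078). Il16 fell from 185 and 259 to 124 and 96.3 CPM (log2 fold change -1.01, SE 0.21, adjusted p = 0.021). Ifng, the main cytokine of cytotoxic T cells, held 328 and 193 against 333 and 119.9 CPM (log2 fold change -0.20, SE 0.46, adjusted p = 0.789), and the replicates of each genotype differed more than the genotypes. Tnf was not past the threshold either (log2 fold change 0.40, SE 0.27, adjusted p = 0.322).

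Among the 31 lists, homing receptors and integrins had the highest share of calls, 23 of 29, of which 18 were lower and 5 higher (79.3%, median -1.01). Beside Itgax, Itgam and Ccr2, Cx3cr1, the fractalkine receptor, fell from 73.1 and 87.4 to 25.03 and 12.2 CPM (log2 fold change -2.11, SE 0.35, adjusted p = 0.012). The 18 also held the liver and tissue homing receptors Cxcr6 and Cxcr3, the alpha chains Itga4, Itgal, Itga1, Itga2 and Itgae, and the beta chains Itgb1, Itgb2 and Itgb7. The 5 that rose were the chemokine receptors Ccr4, Ccr6 and Ccr8 and the chains Itgav and Itgb3 of the vitronectin receptor, with Ccr8 from 3.95 and 3.83 to 15.9 and 10.1 CPM as the most abundant of the 3 receptors.

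Receptors shared with NK cells were lower for 8 of 21 members and higher for 2, Fcer1g and Klrb1b (47.6%, median -1.003). Klrd1, which encodes CD94, fell from 145 and 177 to 79.97 and 48.8 CPM (log2 fold change -1.32, SE 0.23, adjusted p = 0.014). Klrk1, which encodes NKG2D, fell from 321 and 405 to 219 and 182 CPM (log2 fold change -0.86, SE 0.16, adjusted p = 0.016), and its adaptor Hcst from 37.7 and 49.7 to 17.8 and 18.5 CPM (log2 fold change -1.27, SE 0.19, adjusted p = 0.0094). The markers of NK cells themselves also summed lower in STAT3-/-PD-1-/- libraries, as given above. The sort required the TCR beta chain, which NK cells lack, and their part in these falls was not tested.

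Cytokine receptors were lower for 6 of 28 members and higher for 3, Il1r2, Csf2rb and Il2ra (32.1%). Ifnar2, a chain of the type I interferon receptor, fell from 27.8 and 31.2 to 14.1 and 14.8 CPM (log2 fold change -1.03, SE 0.14, adjusted p = 0.0079). Il27ra (-0.79 ± 0.13) and Il10rb (-0.76 ± 0.21) were also lower. Of 25 genes for JAK, STAT and SOCS proteins 5 were lower and 0 higher, a share of 20% against 16.8% of all genes tested, and DESeq2 called 10. Jak1, a kinase of many cytokine receptors, fell from 1268 and 1257 to 724 and 717 CPM (log2 fold change -0.81, SE 0.10, adjusted p = 0.0059). Cish, a feedback inhibitor, fell from 61.9 and 62.4 to 33.02 and 26.7 CPM (log2 fold change -1.06, SE 0.20, adjusted p = 0.017), and Pim2 had a log2 fold change of -0.67 ± 0.12.

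Most interferon-stimulated genes were lower without PD-1. Of 51 tested members, 28 were called lower and 1 higher, Isg20, and 48 had a negative log2 fold change (56.9% called, median -0.92). Ifi27l2a fell from 103 and 123 to 25.3 and 23.9 CPM (log2 fold change -2.20, SE 0.14, adjusted p = 0.0013), and Ifi206 fell from 146 and 175 to 39.1 and 23.8 CPM (log2 fold change -2.35, SE 0.24, adjusted p = 0.0036). Slfn5 fell from 15.5 and 25.1 to 4.84 and 7.37 CPM (log2 fold change -1.73, SE 0.30, adjusted p = 0.013). The same list had a median log2 fold change of 0.42 in STAT3-/- against WT and -0.47 in STAT3-/-PD-1-/- against WT cells, 2 comparisons that share the WT libraries.

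**Figure D4:**
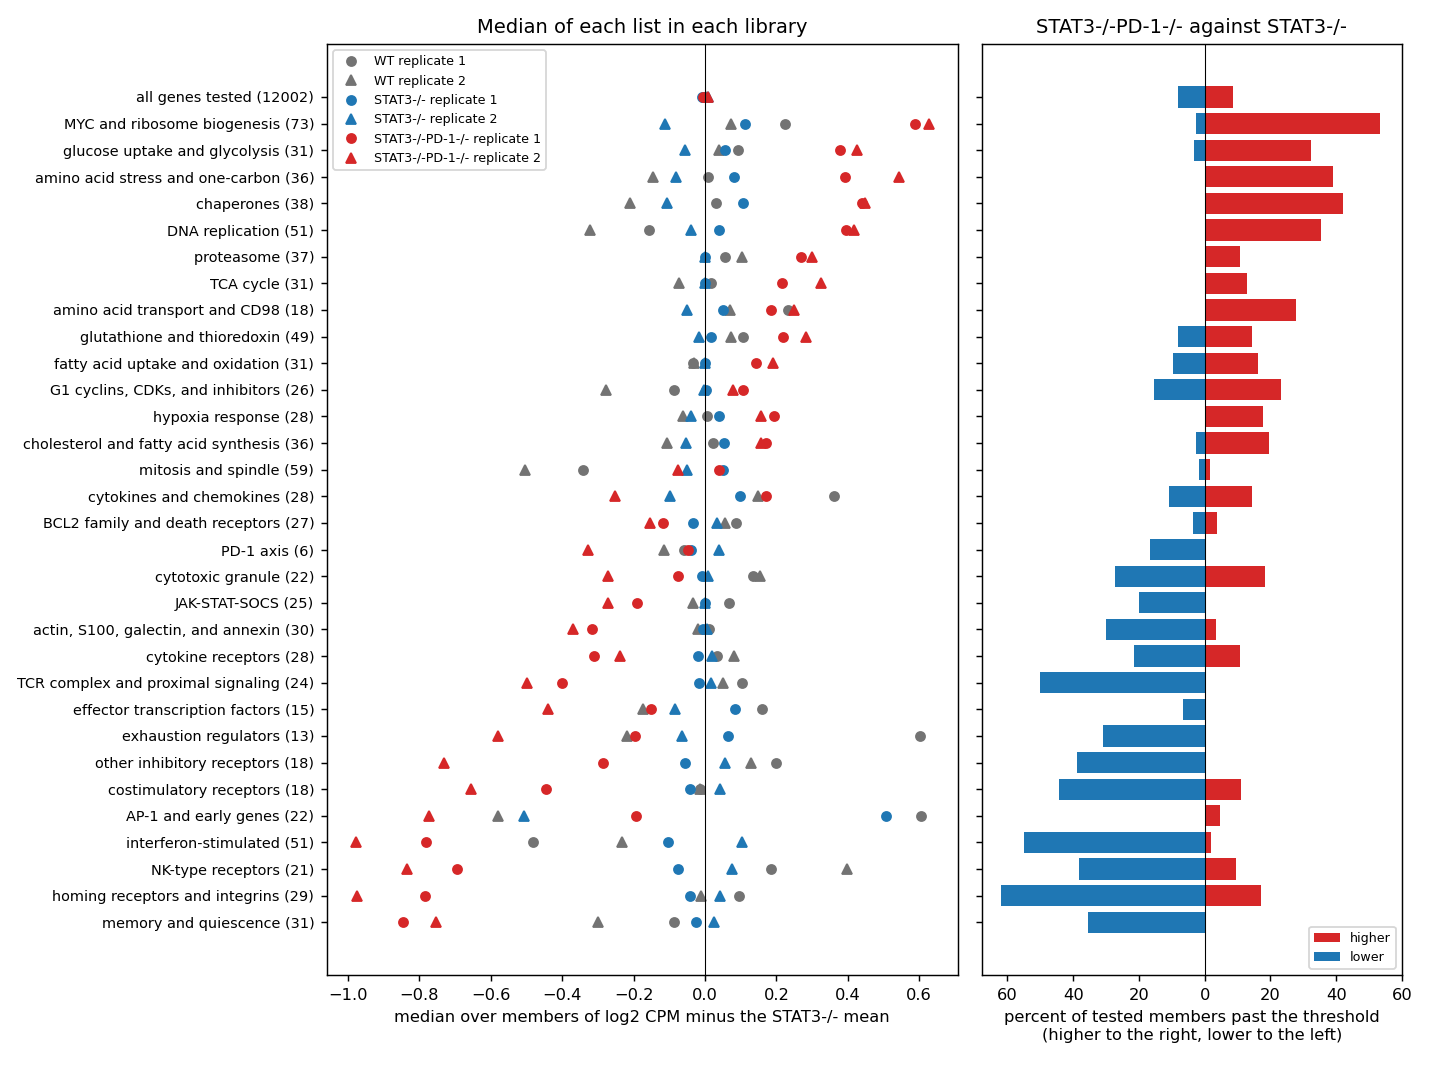
Left, median over the tested members of each of 31 gene lists (number tested in brackets) of log2(CPM + 0.5) minus the mean of the STAT3-/- libraries, 1 point per library. Right, percent of tested members called higher (red) or lower (blue) in STAT3-/-PD-1-/- against STAT3-/- cells, with 8.76% and 8.05% over all genes tested in the top row. Both STAT3-/-PD-1-/- libraries lay above all others for MYC and ribosome biogenesis and below all others for memory and quiescence.

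Many genes of ribosome biogenesis were higher without PD-1. The list for MYC and ribosome biogenesis had 39 members called higher and 2 lower among 73 tested (56.2%), and its median was 0.63. Ipo4, an importin for ribosomal proteins and histones, rose from 23.6 and 16.3 to 41.98 and 58.5 CPM (log2 fold change 1.33, SE 0.23, adjusted p = 0.013). Srm, the spermidine synthase, rose from 17.01 and 11.9 to 32.3 and 35.6 CPM (log2 fold change 1.23, SE 0.26, adjusted p = 0.024). Nop16, a nucleolar protein of ribosome assembly, rose from 20.7 and 13.8 to 36.6 and 42.3 CPM (log2 fold change 1.19, SE 0.21, adjusted p = 0.013), and Slc19a1, the reduced folate carrier, from 18.6 and 14.3 to 33.95 and 42.8 CPM (log2 fold change 1.22, SE 0.19, adjusted p = 0.010). The 2 that fell, Mxd3 and Mxd4, encode antagonists of MYC. Myc itself held 79.3 and 43.9 against 98.7 and 56.8 CPM and was not past the threshold (log2 fold change 0.34, SE 0.34, adjusted p = 0.525).

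MYC binds the E-box CACGTG, and E2F factors of the cell cycle bind TTTCCCGC or TTTGGCGC, so promoters of these lists were searched for these letters on both strands from 250 bases before to 50 bases after the RefSeq start (300 bases). The E-box was found in 16 of 66 promoters of the MYC and ribosome biogenesis list (24.2%) in 7.24% of the 27025 promoters of the table and in 10.3% of the 9592 promoters of tested genes. The E2F letters were found in 12 of 42 promoters of the DNA replication list (28.6%), in 1.63% of all and in 3.33% of those of tested genes. The letters TGATGNAA, which ATF4 binds, were found in 10 of 31 promoters of the amino acid stress and one-carbon list (32.3%), in 4.06% of all and in 2.16% of those of tested genes. The lists were written by hand and hold known targets of these factors, so higher shares of the letters were partly built in. The shares thus test none of the factors, and a match is a description, not a site in use. Of all 12002 genes tested 79.9% had a promoter in the table, under the 80% needed, so no share is given for the genes called higher or lower.

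The promoters of the 2 called members with the smallest p that hold the letters are shown for each of the first 2 motifs, from RefSeq on GRCm38.p6, 5′ to 3′ on the strand of the gene with the motif in capitals. GCGGGAAA is TTTCCCGC read on the other strand. Rfc3 (chr5:151651159-151651458, minus strand) and Mcm7 (chr5:138171834-138172133, minus strand) hold the E2F letters. Utp20 (chr10:88826765-88827064, minus strand) and Mybbp1a (chr11:72441077-72441376, plus strand) hold the E-box.
Rfc3: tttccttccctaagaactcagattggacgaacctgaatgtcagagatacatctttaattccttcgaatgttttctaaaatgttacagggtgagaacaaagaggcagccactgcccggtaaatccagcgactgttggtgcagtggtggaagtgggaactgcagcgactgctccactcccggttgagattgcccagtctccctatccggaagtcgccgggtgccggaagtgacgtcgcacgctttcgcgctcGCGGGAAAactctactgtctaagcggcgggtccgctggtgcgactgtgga
Mcm7: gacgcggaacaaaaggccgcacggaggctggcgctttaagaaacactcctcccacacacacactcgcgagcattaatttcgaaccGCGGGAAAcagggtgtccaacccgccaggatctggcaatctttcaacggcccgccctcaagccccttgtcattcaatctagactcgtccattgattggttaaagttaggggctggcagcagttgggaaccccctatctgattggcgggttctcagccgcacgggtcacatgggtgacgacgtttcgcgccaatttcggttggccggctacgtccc
Utp20: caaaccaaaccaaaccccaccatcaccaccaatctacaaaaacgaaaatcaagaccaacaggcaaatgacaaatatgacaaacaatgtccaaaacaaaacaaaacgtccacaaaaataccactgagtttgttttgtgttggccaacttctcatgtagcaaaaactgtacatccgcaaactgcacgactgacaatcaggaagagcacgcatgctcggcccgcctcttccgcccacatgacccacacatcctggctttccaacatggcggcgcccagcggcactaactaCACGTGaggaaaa
Mybbp1a: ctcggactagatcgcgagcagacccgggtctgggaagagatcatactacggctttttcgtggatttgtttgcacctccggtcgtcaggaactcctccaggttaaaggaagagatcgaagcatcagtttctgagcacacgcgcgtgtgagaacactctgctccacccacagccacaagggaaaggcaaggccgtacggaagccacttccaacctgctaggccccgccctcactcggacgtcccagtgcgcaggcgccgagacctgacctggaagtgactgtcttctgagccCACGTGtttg
Mybbp1a rose from 175 and 139.96 to 307 and 406 CPM (log2 fold change 1.18, SE 0.17, adjusted p = 0.0089), and Utp20 rose from 64.3 and 60.7 to 104 and 114 CPM (log2 fold change 0.80, SE 0.11, adjusted p = 0.0083), both factors of the nucleolus. Mcm7, a subunit of the replicative helicase, rose from 204 and 191 to 264 and 309 CPM (log2 fold change 0.54, SE 0.14, adjusted p = 0.043).

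A share of the DNA replication genes was higher, and few genes of mitosis were called. Of 51 tested replication genes 18 were called higher and 0 lower (35.3%, median 0.41). Pold2, a subunit of DNA polymerase delta, rose from 52.2 and 46.9 to 77.3 and 92.8 CPM (log2 fold change 0.78, SE 0.15, adjusted p = 0.018), and Gins2, of the helicase complex, rose from 32.1 and 27.6 to 48.6 and 51.6 CPM (log2 fold change 0.75, SE 0.13, adjusted p = 0.015). Rfc3, which loads the sliding clamp, rose from 56.05 and 49.1 to 77.4 and 95.8 CPM (log2 fold change 0.72, SE 0.16, adjusted p = 0.028), and the nuclease Dna2 from 48.7 and 46.99 to 77.8 and 78.6 CPM (log2 fold change 0.71, SE 0.11, adjusted p = 0.011). Of 59 genes of mitosis and the spindle 2 were called (3.39% against 16.8% of all genes tested), of which 1 was higher, Mybl2 (0.87 ± 0.18), and 1 lower, Cdc25b (-1.15 ± 0.18), with a median of -0.03. Mki67, a marker of cycling cells, held 3033 and 2809 against 3061 and 3001 CPM (log2 fold change 0.05, SE 0.10, adjusted p = 0.740).

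Genes that control the G1 phase changed in both directions. Of 26 tested, 6 were higher, E2f3, E2f4, E2f8, Ccne1, Cdk4 and Cdk6, and 4 lower (38.5%). The 4 that were lower encode inhibitors of proliferation. Cdkn1b, which encodes p27, fell from 99.9 and 107 to 61.6 and 57.2 CPM (log2 fold change -0.80, SE 0.11, adjusted p = 0.0082). Trp53inp1, a target of p53, fell from 206 and 249 to 100.5 and 124 CPM (log2 fold change -1.02, SE 0.15, adjusted p = 0.0091). The inhibitors of CDK4 and CDK6 Cdkn2d (-0.75 ± 0.11) and Cdkn2c (-0.63 ± 0.13) were the others.

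Several enzymes of glycolysis were higher without PD-1. Of 31 tested members 10 were called higher and 1 lower, Slc2a3, a glucose transporter (35.5%, median 0.49). Eno3, an enolase, rose from 23.9 and 25.001 to 77.4 and 79.2 CPM (log2 fold change 1.68, SE 0.12, adjusted p = 0.0014). Tpi1, the triosephosphate isomerase, rose from 138 and 115 to 311 and 326 CPM (log2 fold change 1.33, SE 0.13, adjusted p = 0.003). Ldha, which makes lactate, rose from 581 and 503 to 1054 and 1153 CPM (log2 fold change 1.03, SE 0.12, adjusted p = 0.0047), and Hk2, the first enzyme of the pathway, from 69.1 and 41.2 to 106 and 110.1 CPM (log2 fold change 0.97, SE 0.23, adjusted p = 0.033). The transporter Slc2a1 held 104 and 69.4 against 73.3 and 65.8 CPM and was not past the threshold (log2 fold change -0.32, SE 0.26, adjusted p = 0.427).

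Of 28 hypoxia response genes 5 were higher and 0 lower. Car12, a carbonic anhydrase of the cell surface, rose from 6.31 and 4.41 to 19.04 and 22.1 CPM (log2 fold change 1.94, SE 0.23, adjusted p = 0.0052). Ndrg1 rose from 50.7 and 42.2 to 137 and 129.7 CPM (log2 fold change 1.52, SE 0.13, adjusted p = 0.0023). Egln3, an oxygen-sensing prolyl hydroxylase, rose from 5.15 and 3.71 to 9.50 and 12.5 CPM (log2 fold change 1.31, SE 0.28, adjusted p = 0.023), and Bnip3 and P4ha2 were the others. The share of 17.9% was close to the 16.8% of all genes tested.

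Some genes of amino acid synthesis and uptake were also higher. Of 36 genes of amino acid stress and one-carbon metabolism 14 were higher and 0 lower (38.9%, median 0.46). Asns, the asparagine synthetase, rose from 16.1 and 8.61 to 47.4 and 63.7 CPM (log2 fold change 2.17, SE 0.29, adjusted p = 0.0077). Shmt1 rose from 37.1 and 24.4 to 76.7 and 84.2 CPM (log2 fold change 1.39, SE 0.22, adjusted p = 0.011), and Shmt2 rose from 112 and 88.6 to 182 and 236 CPM (log2 fold change 1.06, SE 0.18, adjusted p = 0.013), which move one-carbon units from serine to folate. Mthfd1, also of the folate cycle, rose from 108 and 79.99 to 192 and 189 CPM (log2 fold change 1.02, SE 0.19, adjusted p = 0.016). Of 18 amino acid transporter genes 5 were higher and 0 lower, a share of 27.8% against 16.8% of all genes tested. Slc7a5, the light chain of the CD98 transporter of large neutral amino acids, rose from 134 and 80.7 to 226 and 294 CPM (log2 fold change 1.27, SE 0.28, adjusted p = 0.025), and Slc7a1, a carrier of arginine and lysine, rose from 147 and 127 to 199 and 237 CPM (log2 fold change 0.67, SE 0.14, adjusted p = 0.024). The CD98 heavy chain Slc3a2 held 254 and 107 against 159 and 159 CPM (log2 fold change -0.18, SE 0.50, adjusted p = 0.828), and the spread of its STAT3-/- replicates was wider than the difference.

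Glutathione and thioredoxin genes were higher for 7 of 49 members and lower for 4, a share of 22.4% against 16.8% over all genes tested. Gsto1, a glutathione transferase, rose from 58.8 and 50.2 to 96.4 and 123 CPM (log2 fold change 1.01, SE 0.16, adjusted p = 0.010), and Prdx4, a peroxiredoxin, rose from 40.6 and 40.8 to 68.9 and 64.1 CPM (log2 fold change 0.71, SE 0.18, adjusted p = 0.039). Nfe2l2, which encodes the antioxidant regulator NRF2, fell from 39.2 and 32.5 to 20.3 and 17.6 CPM (log2 fold change -0.92, SE 0.18, adjusted p = 0.019). Hmox1, the heme oxygenase, fell from 15.7 and 12.2 to 7.90 and 8.86 CPM (log2 fold change -0.73, SE 0.19, adjusted p = 0.044). Its call was lost in 8 of 17 alternatives. Gclc, whose product catalyzes the rate-limiting step of glutathione synthesis, held 65.1 and 66.5 against 69.5 and 83.8 CPM (log2 fold change 0.22, SE 0.13, adjusted p = 0.270). Txn1, thioredoxin, held 232 and 217 against 285 and 287 CPM (log2 fold change 0.35, SE 0.10, adjusted p = 0.058), and passed in 7 of 17 alternatives.

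Of 31 genes of fatty acid uptake and oxidation 8 were called, a share of 25.8% against 16.8% of all genes tested. The 5 that were higher were the scavenger receptor Cd36, the acyl-CoA synthetases Acsl1, Acsl3 and Acsl6, and the binding protein Fabp5. Cd36 rose from 2.58 and 1.65 to 14.9 and 7.37 CPM (log2 fold change 2.39, SE 0.41, adjusted p = 0.013), and Acsl1 rose from 9.19 and 7.83 to 17.5 and 34.2 CPM (log2 fold change 1.60, SE 0.34, adjusted p = 0.023). Another 3 were lower, among them genes of mitochondrial oxidation. Cpt1a, which admits fatty acids to mitochondria, fell from 286 and 234 to 138 and 136 CPM (log2 fold change -0.93, SE 0.14, adjusted p = 0.0096). Slc25a20, the carnitine carrier, fell from 63.7 and 54.3 to 32.9 and 37.4 CPM (log2 fold change -0.75, SE 0.14, adjusted p = 0.017).

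Of 36 genes of cholesterol and fatty acid synthesis 7 were higher and 1 lower, the cholesterol exporter Abcg1 (-0.64 ± 0.13), a share of 22.2% against 16.8% of all genes tested, with a median of 0.10. Scd2, a desaturase, rose from 141 and 151 to 279.8 and 354 CPM (log2 fold change 1.12, SE 0.15, adjusted p = 0.0067), and Elovl6, an elongase, rose from 14.2 and 15.6 to 28.7 and 34.6 CPM (log2 fold change 1.09, SE 0.17, adjusted p = 0.0097). Of 31 genes of the TCA cycle and its supply 4 were higher and 0 lower, a share of 12.9% against 16.8% of all genes tested. Up to 11 were called with library totals alone. The log2 fold change was positive in 25 of the 31, with a median of 0.28. Pcx, the pyruvate carboxylase, rose from 7.39 and 6.14 to 13.7 and 13.4 CPM (log2 fold change 1.004, SE 0.19, adjusted p = 0.018), and Got2 (0.74 ± 0.17) and Fh1 (0.50 ± 0.11) were also called, with Gls2 at 4 and 7 against 27 and 56 counts.

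A part of the chaperone genes was higher without PD-1. Of 38 chaperone genes 16 were higher and 0 lower (42.1%, median 0.42). Hspa9 rose from 199 and 151 to 360.4 and 429 CPM (log2 fold change 1.17, SE 0.18, adjusted p = 0.0093), and Hspd1 rose from 80.4 and 63.9 to 141 and 131 CPM (log2 fold change 0.92, SE 0.18, adjusted p = 0.018), both of the mitochondrial matrix. Hsp90ab1, a cytosolic chaperone, rose from 2146 and 1602 to 3178 and 3854 CPM (log2 fold change 0.91, SE 0.18, adjusted p = 0.019), and Cct6a, of the chaperonin for actin and tubulin, from 249 and 217 to 403 and 418 CPM (log2 fold change 0.82, SE 0.12, adjusted p = 0.0082). Of 37 proteasome genes 4 were higher, Psmd1 (0.67 ± 0.16), Psma6 (0.51 ± 0.12), Psmd6 (0.47 ± 0.12) and Psma7 (0.47 ± 0.11), a share of 10.8% against 16.8% of all genes tested. This count ranged over the other settings from 0 to 16, the latter with library totals alone. Though few were called, 34 of the 37 had a positive log2 fold change. Their median was 0.31, and it ranged from 0.27 to 0.39 over the other settings.

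Actin-binding, S100, galectin and annexin genes were lower for 9 of 30 members and higher for 1, Capg (33.3%). Ahnak, a giant scaffold protein, fell from 4122 and 4606 to 2028 and 1726 CPM (log2 fold change -1.22, SE 0.11, adjusted p = 0.0027). Myo1f, an unconventional myosin, fell from 571 and 558 to 299 and 266 CPM (log2 fold change -0.999, SE 0.13, adjusted p = 0.0067). S100a6, a calcium-binding protein, fell from 694 and 739.7 to 410.02 and 373 CPM (log2 fold change -0.87, SE 0.11, adjusted p = 0.0065), and Crip1 from 482 and 576 to 343 and 289 CPM (log2 fold change -0.74, SE 0.15, adjusted p = 0.021). Of 27 genes of the BCL2 family and death receptors 1 was higher and 1 lower, the latter being Bcl2, given above, a share of 7.41% against 16.8% of all genes tested, and DESeq2 called 10. The folate receptor family gene Izumo1r was not past the threshold (log2 fold change -0.41, SE 0.28, adjusted p = 0.341).

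The PD-1-/- allele was brought in by crossing, so the genes around it were read apart. Within 5 Mb of Pdcd1, 96 genes were listed, 42 were tested and 10 were called (6 higher and 4 lower), which is 23.8% against 20.3% of 650 genes on the rest of chromosome 1. Pdcd1 itself was left out of both groups. Rbm44 had 113 and 155 counts in STAT3-/- and 0 counts in both STAT3-/-PD-1-/- libraries, which makes it at least 43.7-fold lower against a floor of 3 counts per library. Ano7 had 1 and 0 counts in STAT3-/- and 17 and 38 counts in STAT3-/-PD-1-/- libraries. Ramp1, a subunit of the CGRP receptor, had 3 and 7 against 67 and 112 counts. These 3 genes were near 0 in 1 genotype, while the other 7 changed less.

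St8sia4, a polysialyltransferase, fell from 93.3 and 114 to 42.7 and 21.8 CPM (log2 fold change -1.68, SE 0.29, adjusted p = 0.014), and D2hgdh, which degrades D-2-hydroxyglutarate, fell from 12.5 and 12.7 to 5.55 and 4.47 CPM (log2 fold change -1.33, SE 0.20, adjusted p = 0.0093). Scly (-0.73 ± 0.15) was also lower, and Pask (0.51 ± 0.12), Ppp1r7 (0.55 ± 0.11), Hdlbp (0.56 ± 0.12) and Dtymk (0.54 ± 0.12) were higher. Pask lost its call in 10 of 17 alternatives. All 10 called genes near Pdcd1 had the same sign in CD4+ T cells, whose STAT3-/-PD-1-/- donors carry the same allele. The flanking segment and the loss of PD-1 cannot be told apart for these genes.

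The same comparison in liver CD4+ T cells used 4 other libraries. In CD4+ T cells 1324 of 11959 genes were called (11.1%), 723 higher and 601 lower. Of the 1971 genes called in CD8+ and tested in CD4+ T cells, 1952 (99.0%) had the same sign in CD4+ T cells, against 81.8% of the genes not called in CD8+ T cells. In the same direction, 943 were called in both subsets, which is 46.8% of the CD8+ calls and 71.2% of the CD4+ calls, and 0 were called in opposite directions. The study's supplement states that both subsets were taken from the livers of the same recipients. Agreement between the subsets thus rests on shared animals. The labels do not say which libraries share them.

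**Figure D5:**
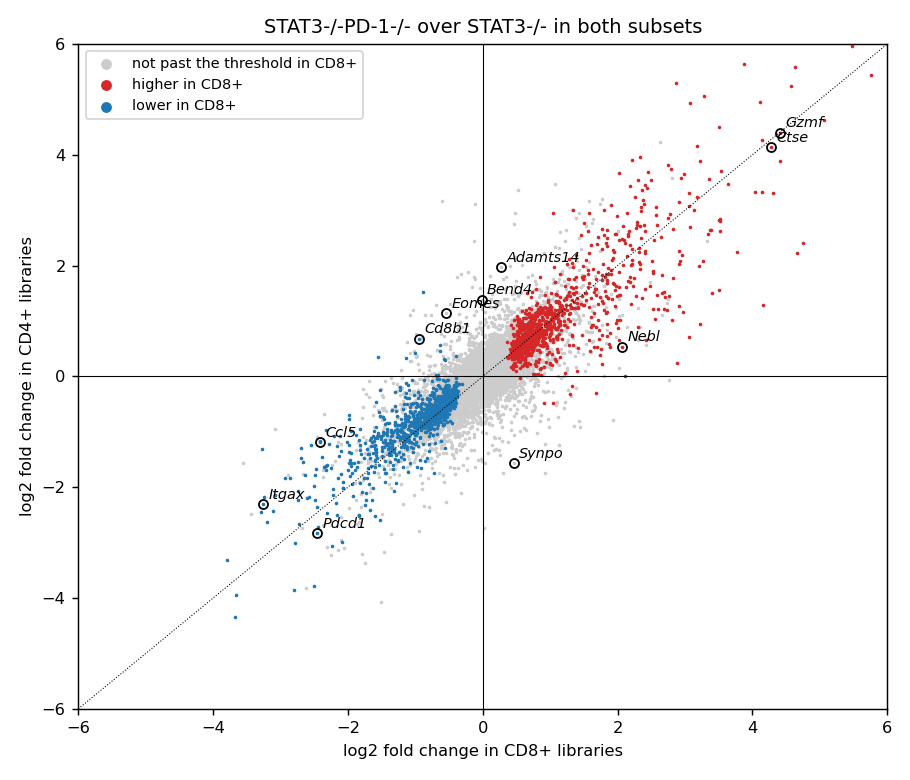
Log2 fold change of STAT3-/-PD-1-/- over STAT3-/- in liver CD8+ (horizontal) and CD4+ libraries (vertical) for 11684 genes tested in both, with 7 further genes beyond the axes and the line of equal change dotted. Genes called higher (red) and lower (blue) in CD8+ T cells lay on the same side of 0 in CD4+ T cells for 1952 of 1971.

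An interaction term fitted to all 12 libraries compared the change in CD8+ with that in CD4+ T cells. The fit did not pair libraries from shared recipients. With edgeR, 0 of 12334 genes passed (0%), 443 had an unadjusted p under 0.05, DESeq2 called 21, and keeping all genes with at least 1 count gave 9. Cd8b1 (-1.63 ± 0.26, difference of log2 fold changes, CD8+ minus CD4+, ± SE), Ccl5 (-1.23 ± 0.16), Adamts14 (-1.69 ± 0.30), Eomes (-1.67 ± 0.27) and Bend4 (-1.40 ± 0.24) had the smallest p among negative differences. Synpo (2.03 ± 0.37), Ajuba (1.44 ± 0.26), Nebl (1.54 ± 0.29), Asb2 (1.82 ± 0.37) and Hectd2 (1.57 ± 0.34) had the smallest p among positive ones.

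Ccl5 was lower in both subsets, with a log2 fold change of -2.42 ± 0.12 in CD8+ and -1.19 in CD4+ T cells. Eomes, a T-box factor of effector and memory CD8+ T cells, had -0.54 ± 0.15 in CD8+ and 1.14 in CD4+ T cells. None of these 10 differences passed the adjusted threshold in the edgeR fit reported here. All 10 passed with DESeq2, and Cd8b1, Ccl5, Adamts14, Eomes, Synpo and Asb2 passed with edgeR when all genes with at least 1 count were kept.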

How the data were processed

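Donor CD8+ T cells were sorted from recipient livers, and RNA was sequenced from polyA-selected, stranded libraries. Per the labels and the study's methods, the authors aligned reads to mm10 with STAR, counted them over RefSeq genes with HTSeq and deposited whole-number counts, RPKM values and the total exon length of each gene. The strand setting of the counting is not given in the sources used here, so antisense and overlapping genes are uncertain. A protocol in the labels describes another cell line and was not used. Columns that matched no sample numbered 0. The deposited counts were scaled by TMM and tested with edgeR 4.0.16 (glmQLFit, R 4.3.3) on 6 CD8+ libraries after filterByExpr (minimum count 10, total 15), with Benjamini-Hochberg adjustment at 0.05. DESeq2 1.42.0 and limma 3.58.1 on log2 RPKM (pseudocounts 1 and 0.1) served as alternatives, as did other scalings and filters, a replicate block and leaving out each library. Python 3.11.15, pandas 2.3.3, numpy 2.4.6 and matplotlib 3.10.9 gave the summaries and plots.

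Named genes were the 12 largest rises and falls whose log2 CPM averaged 3 or more, up to 4 changed members of each list, the genes of proteins the study measured, changed genes within 5 Mb of Pdcd1, and the 5 interaction genes with the smallest p in each direction. Other genes named (Lag3, Havcr2, Tigit, Ctla4, Tox, Mki67, Prf1, Gzmd, Gzme, Batf3, Gls2, Junb, Nfkbia, Bhlhe40 and remaining members of short counts and marker lists) were picked once their values had been seen. Both the members and the 31 lists were chosen with earlier results of these data known. Some genes that the rule names are not reported here.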

Additional observations from a re-analysis of the deposited data

How the results depend on the processing

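The design of 2 libraries a side left the number of calls dependent on single libraries. Leaving out 1 library at a time gave 2 to 1878 changed genes, with 1 to 936 higher and 1 to 942 lower, the lowest without replicate 2 of the STAT3-/-PD-1-/- group. Requiring at least a 2-fold change left 795 genes, 440 higher and 355 lower. DESeq2 called 2813, DESeq2's size factors in edgeR 2023, upper-quartile factors 2066, library totals 2174, all genes with at least 1 count 2407, at least 10 counts in each library 1927, the 4 libraries alone 1895, all 12 libraries 2125, and limma on RPKM 1959 and 1981. Of the 2017 called genes, 1847 had the same sign with at least 10 counts in each library and 2014 with the 4 libraries alone. These 2 settings tested fewer genes than the reported fit. Without STAT3-/-PD-1-/- replicate 2 the same sign was found for 2016, and in all other settings for 2017. Of 133 called genes named by rule, 118 passed in each alternative other than those that left out a single library. A fit with the replicate number as a block called 2932 genes (1498 higher and 1434 lower). The labels do not say what a replicate number shares, although serial numbers in the sample titles form 1 run per replicate number. The correlation of deviations from the group means was 0.678 for WT with STAT3-/-, 0.176 for WT with STAT3-/-PD-1-/- and 0.0600 for STAT3-/- with STAT3-/-PD-1-/- libraries, so a shared replicate effect was seen between WT and STAT3-/- libraries and hardly between the 2 groups compared. For TCR sequencing of the sorted cells, the study's methods describe 2 batches of pooled mice. Whether the replicate numbers mark these batches was not tested.

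The interaction with subset gave 21 genes with DESeq2, 9 with all genes of at least 1 count, 0 under the block and 0 with each of the 8 STAT3-/- and STAT3-/-PD-1-/- libraries left out in turn.

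No called gene named by rule reversed. Among uncalled genes, the log2 fold change of Bend4 became 0.014 with upper-quartile factors, and with library totals that of Bend4 became 0.065 and that of Gzmb 0.046. Under the block Slc3a2 became 0.0043. Leaving out 1 library at a time, Gzmb ranged from -0.23 to 0.11, Ifng from -1.14 to 0.35, Slc3a2 from -0.68 to 0.57, Slc2a1 from -0.59 to 0.0014, Nfkbia from -1.54 to 0.45, Junb from -1.88 to 0.32, Bhlhe40 from -1.34 to 0.87, Bend4 from -0.14 to 0.10, Hectd2 from -0.13 to 0.51 and Myc from -0.14 to 0.82. The upper end of the first 8 came without STAT3-/- replicate 1, except that Gzmb and Ifng were highest without STAT3-/-PD-1-/- replicate 2. Of 22 uncalled genes named by rule, 5 passed in 1 or more alternatives, Stat3, Txn1, Eomes, Ajuba and Asb2. The medians of the cytokine, mitosis and G1 lists also changed sign in 1 or more settings. Other medians kept their sign while their size moved. That of the receptors shared with NK cells ranged from -1.13 to -0.65, and that of cytotoxic granule genes from -0.29 to -0.06. The median of cholesterol and fatty acid synthesis ranged from 0.06 to 0.24. The cause was not tested.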

Other observations

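The median log2 fold change of STAT3-/-PD-1-/- over STAT3-/- fell with exon length when genes were split into 4 equal bins, at 0.10, 0.01, -0.03 and -0.07 from the shortest to the longest genes. Over 4 bins of mean level it was 0.11 in the lowest and -0.05 in the highest. Rn45s, a ribosomal RNA precursor, took 0.69% to 1.57% of the counts of the 6 CD8+ libraries. By chromosome, the share of tested genes called ranged from 12.8% on chromosome 18 to 20.5% on chromosome 1, which holds Pdcd1.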
